A study of Mus musculus with 4 samples.

Results

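mmu-miR-451a, mmu-miR-144-3p, mmu-miR-144-5p and mmu-miR-486a-5p are miRNAs best known from red blood cells. They were followed here in the exosome fraction pelleted from the medium of differentiating 3T3-L1 cells. These 4 of the 1881 miRNAs on the array were found by their names in the array files. They were chosen from their measured signals, because miR-451a and miR-144-3p had stood out on these same arrays, and their differences between days are therefore descriptions. miR-451a was the only member detected at D0. Its unscaled signal was 255 times as high at D12, where the median miRNA was at 1.91 times its D0 signal. Under 5 scalings between arrays the ratio of miR-451a was 77.6 to 148. miR-144-3p came above the detection limit at D4 on both of its probes. miR-486a-5p did so on 1 of its 2 probes, with a signal of 4.32, which is below its D0 limit of 4.94. From D4 to D12 the signals of miR-451a and miR-144-3p were 5.42 and 5.01 times as high, while the median miRNA on the arrays was at 0.865 of its D4 signal. The signal of miR-486a-5p was 4.07 times as high in sum and 2.72 times as high on the probe detected on both days. miR-144-5p was called detected by the software at D12 alone, by 1 of its probes.

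3T3-L1 is an established mouse cell line that resembles fibroblasts and can be driven to become fat cells. D0 cells had been kept for 3 days in low-glucose growth medium. D4, D12 and D16 count the days since the change to high-glucose differentiation medium, which held 1-methyl-3-isobutylxanthine, dexamethasone and insulin for the first 2 days and insulin without the other agents afterwards. Every medium contained exosome-depleted FBS, penicillin and streptomycin. Medium kept without cells was not analysed here, so the share of a signal that came from the serum was not tested. The exosome fraction was pelleted by ultracentrifugation, and its RNA was labelled with Cy3 and read on 4 arrays, 1 for each day. According to the methods, exosomal RNA from 2 independent experiments was mixed for each array, whereas the sample labels speak of 3 experiments. There was no replicate array, so the days cannot be tested against each other and p-values are absent. The errors printed after a signal are those of the scanner software for 1 array and are not the measured spread among its spots. For both probes of miR-451a at D12 the signal was 10.0 times the error. The standard deviation over their spots was 3.08% and 2.70% of the mean.

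miR-144 and miR-451a are cut from a shared transcript, whose gene is switched on by the erythroid factor GATA1 during red cell maturation. The precursor of miR-451a is too short for Dicer and is cut by Argonaute 2 instead, whereas miR-144 gives a pair of arms by the usual route. miR-486 is transcribed with Ank1, the gene of the red cell protein ankyrin, and is abundant in red blood cells and in striated muscle. Its copies miR-486a and miR-486b lie on opposite strands of the same place and share the sequence of the 5p arm.

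The sequences show how the members are related, since a miRNA recognises its targets mainly through the seed, bases 2 to 8 from its 5′ end. RefSeq sequences were at hand for 3 of the 4 members and for 1608 of the miRNAs on the array, and none is printed for miR-486a-5p. The seed is in capitals in the lines for the 3 members, and the 3 seeds differ from each other. None of the other array miRNAs with a sequence carries one of them. miR-101a-3p is shown because it has bases 2 to 7 in common with miR-144-3p, and there those 6 bases are in capitals.
miR-451a: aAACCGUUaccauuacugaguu
miR-144-3p: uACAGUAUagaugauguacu
miR-144-5p: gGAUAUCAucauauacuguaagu
miR-101a-3p: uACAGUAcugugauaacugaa

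On the GRCm38.p6 assembly, from the RefSeq table, miR-144-5p lies at chr11:78073010-78073032, miR-144-3p at chr11:78073047-78073066 and miR-451a at chr11:78073186-78073207, all on the plus strand. The hairpins of Mir144 (chr11:78073005-78073070) and Mir451a (chr11:78073170-78073241) are separated by 99 bases. Both hairpins are printed with their mature miRNAs in capitals, because the place of miR-451a in its hairpin sets it apart: it takes up bases 17 to 38 of 72 and runs across the middle, where the arms of Mir144 stand on either side of the loop.
Mir144: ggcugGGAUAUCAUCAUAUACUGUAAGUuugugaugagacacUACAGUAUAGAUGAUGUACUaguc
Mir451a: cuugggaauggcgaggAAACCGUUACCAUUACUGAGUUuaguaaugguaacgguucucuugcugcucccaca
The Mir451b gene has the same coordinates on the minus strand, and miR-451b was not detected on any day. Mir486 overlaps Ank1 and Mir3107, the gene of miR-486b, in the RefSeq gene table. miR-486a-3p and miR-486b-3p were also below detection on all 4 arrays. miR-486b-5p has no probe of its own on the array, and since it shares the 5p sequence, the signal named miR-486a-5p cannot be assigned to either copy.

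The arrays themselves differed between days. They detected 329 to 426 miRNAs, and their summed signal ran from 12716 at D0 to 39129 at D4, with 30966 and 21873 on the later days. Spots of the same probe varied most at D0, with a median coefficient of variation of 21.1%, against 7.19% to 8.07% on the other days. The software scaled signals by an effective spot size, which it estimated at 0.780 for D4 and 0.760 for D12 and set to a lower default of 0.6 for D0 and D16. Ratios below are of unscaled signals. A value called scaled was first divided by its array's 75th percentile, taken over 283 miRNAs that every array detected. This percentile was 4.26 times as high at D4, 3.29 times at D12 and 2.26 times at D16 as at D0.

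The total gene signal of miR-451a was 9.40 ± 1.37 at D0 and 443 ± 33.8 at D4, and on the later days it was 2400 ± 182 (D12) and 1559 ± 119 (D16). Its D0 signal was the lowest and the D12 signal the highest, and no 2 days lay within the sum of their errors. Its share of the signal of all detected miRNAs was 0.0740% at D0 and 1.13% at D4, and then 7.75% (D12) and 7.13% (D16). On that measure D12 and D16 were close, although the signal at D16 was lower. Among detected miRNAs its brightness went from place 170 of 329 at D0 to 14 of 426 (D4), 2 of 406 (D12) and 3 of 380 (D16), an order that also depends on how well each probe binds.

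The D4/D0 ratio of miR-451a was 47.1 ± 7.74, against a median of 2.47 among 317 miRNAs detected on both. Of those miRNAs, 62.1% had a ratio above 2. The D12/D0 ratio was 255 ± 41.9, against a median of 1.91 over 297 miRNAs, 47.8% of them above 2. The D16/D0 ratio was 166 ± 27.2, against a median of 1.32 over 289 miRNAs, 31.1% of them above 2. miR-451a had the highest ratio in each of these 3 comparisons. Scaled, its ratios to D0 were 11.1 at D4, 77.6 at D12 and 73.3 at D16, again the highest of all, and 10.1% of the 297 miRNAs then had a D12/D0 ratio above 2. After quantile normalization, in which every array is given the same distribution of signals, its D12/D0 ratio was 120 and 12.8% of miRNAs exceeded 2. A miRNA in place 2 of the unscaled D12/D0 order, miR-99a-5p, had a ratio of 57.8.

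**Figure D1:**
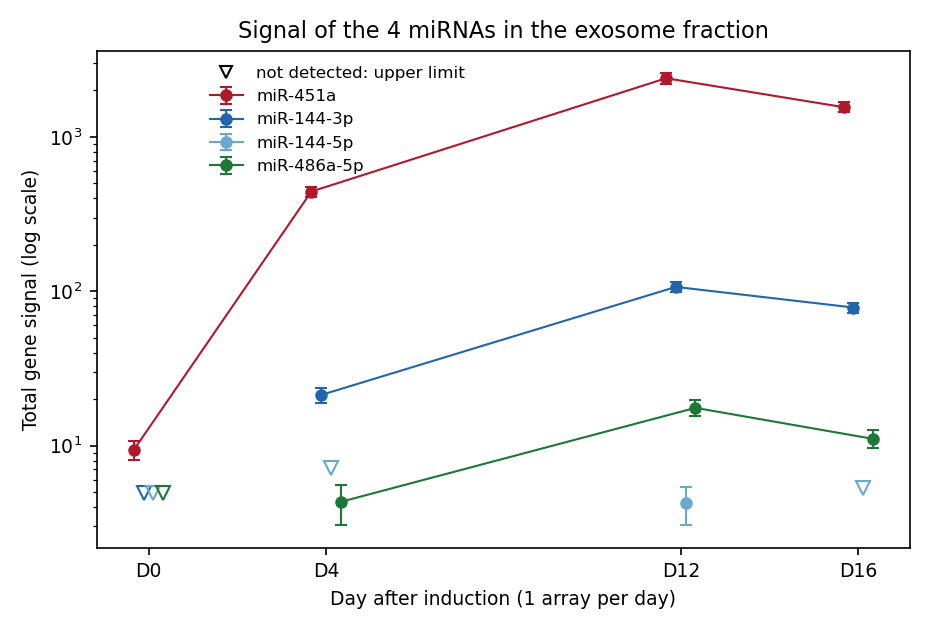
Total gene signal of the 4 miRNAs (log axis) against the day after induction, with 1 array per day; bars are the software's within-array error and open triangles the limit where a miRNA was not detected. miR-451a runs from 9.40 at D0 to 2400 at D12, and miR-144-3p and miR-486a-5p lie below it with their highest signals at D12 as well.

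miR-144-3p is the arm of miR-144 usually taken as the guide strand. It was not detected at D0, where its limit, 3 times the error summed over its probes, was 4.91. On the later days its signal was 21.3 ± 2.26 (D4), 107 ± 7.74 (D12) and 78.4 ± 5.71 (D16). All 30 of its spots were well above background on those 3 days, and none was at D0. Its D4/D0 ratio was at least 4.33 and its D12/D0 ratio at least 21.7. Scaled, these lower bounds were 1.02 and 6.60. They are set by the D0 limit and are not the size of the difference: the mean over spots was 0.731 ± 0.502 (SE over spots) at D0 and 9.17 ± 0.260 at D4 on the scaled values. In brightness it was in place 202 of 426 (D4), 52 of 406 (D12) and 54 of 380 (D16).

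miR-144-5p is the opposite arm, whose targets are less studied. It was detected at D12 with a signal of 4.23 ± 1.18, and its limits on the other days were 4.91 (D0), 7.13 (D4) and 5.34 (D16). These limits sum the errors of 2 probes, and the D12 signal, which came from 1 probe, is below each of them. The errors of that probe alone were 0.819 (D0), 1.19 (D4) and 0.904 (D16), and the unscaled D12 signal is above 3 times each. The call came from 1 probe, A_54_P00004883, with a signal of 3.59 times its error, and the other probe stood at 0.573 times its error. At D16 the same probe had a signal of 2.28, 2.52 times its error. None of the 30 spots was well above background on any day. If it had kept its D12 proportion to miR-144-3p, 3.96%, its signal would have been 0.843 at D4 and 3.11 at D16. The D4 value is under 3 times the error of A_54_P00004883 on that day, and the D16 value is above it. At that proportion the probe would thus have been called at D16, where it was not. The measured 2.28 was lower by less than the probe's error, 0.904.

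miR-486a-5p is the arm of miR-486 that red blood cells and muscle contain in quantity. Its limit at D0 was 4.94, and its later signals were 4.32 ± 1.27 (D4), 17.6 ± 2.04 (D12) and 11.1 ± 1.48 (D16). The D4 signal was below the D0 limit, which sums the errors of 2 probes, so this limit gives no D4/D0 bound above 1. Unscaled, the D4 signal was above 3 times the D0 error of its own probe, 0.825. It came from that 1 probe, at 3.40 times its error, with 3 of 30 spots well above background. At D12 and D16 both probes were detected, with 24 and 17 such spots. Its mean spot signal at D0, 3.49, lay within the range of the 7 negative controls, whose means ran from -0.779 to 6.39, and at D4 it was 10.6, above the highest control mean of 6.24. The D12/D0 ratio was at least 3.56 unscaled and at least 1.08 scaled. At D16 the scaled bound was 0.990, which allows either direction against D0.

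**Figure D2:**
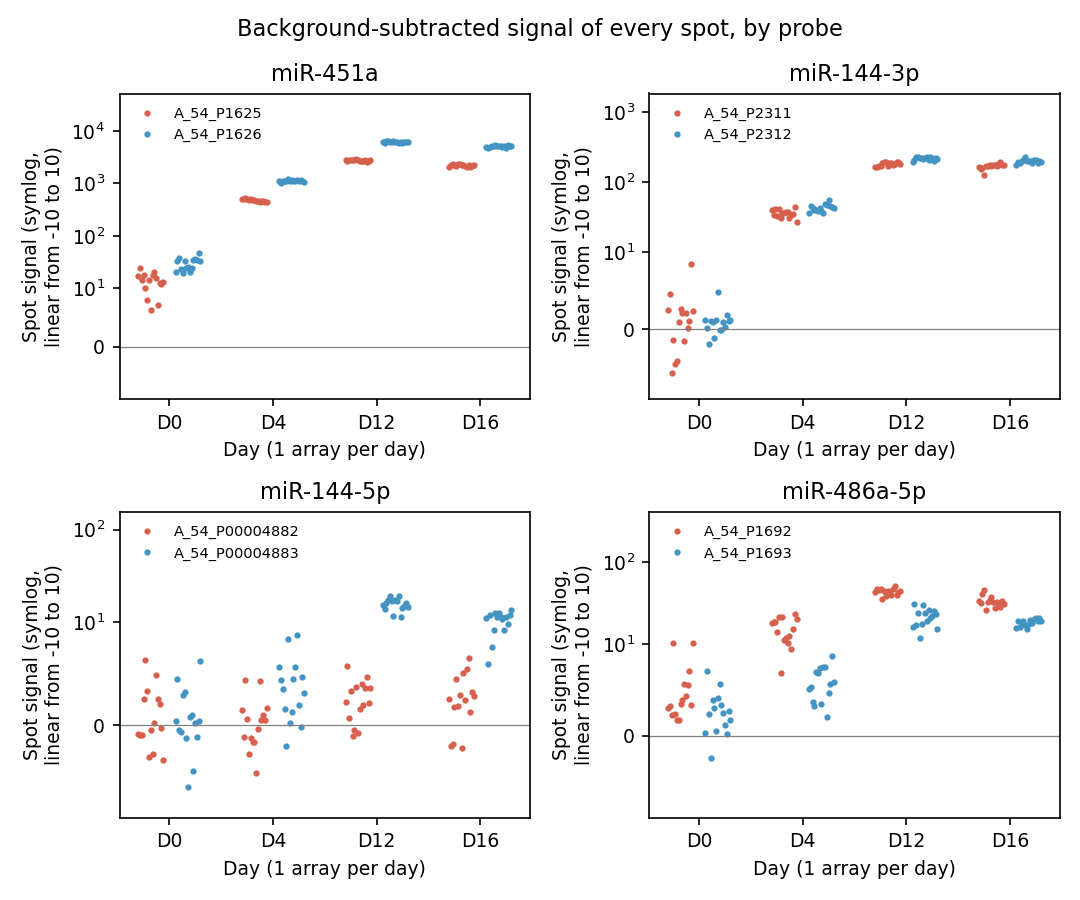
Background-subtracted signal of every spot of the 4 miRNAs by day and probe, 15 spots per probe, on an axis that is linear around 0 and logarithmic beyond. The spots of miR-144-3p lie around 0 at D0 and between 164 and 231 at D12, and miR-144-5p shows signal at D12 and D16 for 1 probe while the spots of its other probe overlap those at D0.

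The probes of miR-451a, and those of miR-144-3p, gave ratios within error of each other, and those of miR-486a-5p were not both detected at D4. The 30 spots of miR-451a ran from 6.35 through a median of 20.8 to 48.4 at D0, with 17 of them well above background. Their range was 443 to 1200 at D4, 2583 to 6454 at D12 and 2047 to 5491 at D16. No spot value of D0 came near those of D4, and the D4 and D12 values did not overlap. Taken by probe, D12 and D16 did not overlap either, with 2583 to 2943 against 2047 to 2352 for the dimmer probe and 5911 to 6454 against 4834 to 5491 for the brighter. None of the spots was saturated. The brighter probe of miR-451a gave 2.12 ± 0.71, 2.34 ± 0.33, 2.24 ± 0.32 and 2.32 ± 0.33 times the signal of the dimmer at D0, D4, D12 and D16. This proportion stayed within its error over a 255-fold range of signal. The D12/D0 ratio was accordingly 246 ± 75.6 by the dimmer probe and 260 ± 49.97 by the brighter.

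The spots of miR-144-3p ran from -5.63 to 8.47 at D0 and from 26.6 to 55.7 at D4, and then from 164 to 231 (D12) and from 125 to 228 (D16). D4 was separate from D0 and from the later days, whereas D12 and D16 overlapped over most of their range. The D12/D4 ratio was 4.96 ± 0.933 by one of its probes and 5.06 ± 0.892 by the other. For miR-486a-5p, the probe that was detected on both days gave a D12/D4 ratio of 2.72 ± 0.882. The larger ratio of its summed signal, 4.07 ± 1.29, includes a probe that counted at D12 and not at D4.

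Between D4 and D12 the 3 members detected on both days moved apart from most other miRNAs. Their D12/D4 ratios were 5.42 ± 0.583 for miR-451a, 5.01 ± 0.645 for miR-144-3p and 4.07 ± 1.29 for miR-486a-5p. Neighbours in this order differ by less than the larger of their errors. All 3 members exceeded 2, as did 4.81% of the 374 miRNAs detected on both days, and the members took places 1, 2 and 4. On the probe of miR-486a-5p that was detected on both days the ratio was 2.72, which would be place 9. Normexp background correction gave 1.30 for miR-486a-5p, with the constant that normexp adds to every signal left in the ratio. miR-223-3p was in place 3 and miR-126a-3p in place 5. After scaling, which leaves the places as they were, the members had ratios of 7.02, 6.49 and 5.27, and 9.09% of miRNAs exceeded 2. After quantile normalization their ratios were 8.54, 6.78 and 7.33, places 2, 5 and 3, and 11.2% of miRNAs exceeded 2. The median of the 3 was 5.01 unscaled and 6.49 scaled, beside 0.865 and 1.12 over all 374.

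Between D12 and D16 they went with the other miRNAs. The D16/D12 ratio was 0.650 ± 0.0698 for miR-451a, 0.735 ± 0.0756 for miR-144-3p and 0.630 ± 0.112 for miR-486a-5p. The median over the 371 miRNAs detected on both days was 0.703, with 95.7% of them below 1. The members were in places 277, 134 and 303 of 371, in the interior of the distribution. Scaled, the ratios were 0.944, 1.07 and 0.915, so the direction for miR-144-3p turned with the scaling. Without the effective spot size, which differed between these arrays, the ratio of miR-451a was 0.823.

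**Figure D3:**
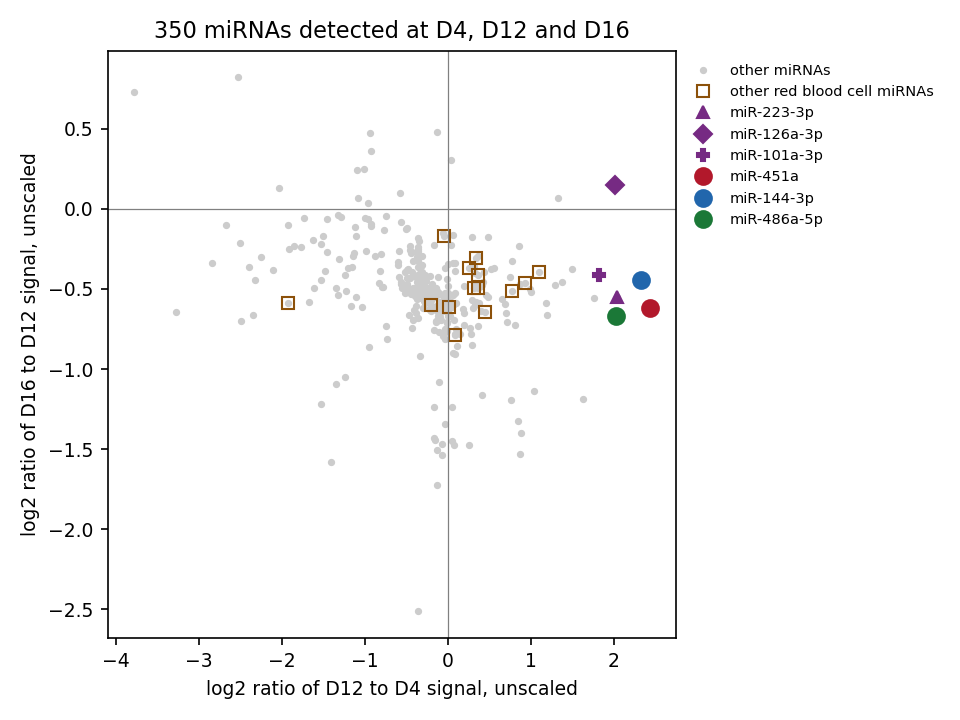
Log2 ratio of D16 to D12 signal against log2 ratio of D12 to D4 signal, both unscaled, for the 350 miRNAs detected on all 3 days; colored circles are the members, open squares the other red blood cell miRNAs, and grey points the rest. The 3 members lie at the right edge with miR-223-3p, miR-126a-3p and miR-101a-3p, and the open squares lie apart from them, near the bulk.

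Ratios between miRNAs on the same array are free of any factor common to that array. The signal of miR-144-3p was 4.81% ± 0.63 (D4), 4.45% ± 0.47 (D12) and 5.03% ± 0.53 (D16) of that of miR-451a. These values differ by less than the sum of their errors, whereas the signals themselves spanned 5-fold. Their size depends on the probes and is not a ratio of molecules. miR-486a-5p was at 0.975% ± 0.296 (D4), 0.732% ± 0.101 (D12) and 0.709% ± 0.109 (D16) of the miR-451a signal, but its D4 value counts 1 probe and the others 2. On the probe detected on all 3 days, A_54_P1692, the proportion was 0.975% ± 0.296, 0.489% ± 0.0765 and 0.457% ± 0.0805, so it was lower at D12 and D16 than at D4 by more than the larger error. At the D12 proportions, the D0 signal of miR-451a would correspond to 0.418 for miR-144-3p and 0.0688 for miR-486a-5p. Both are far below their limits at D0, so their absence from the D0 calls does not show that the proportions were different then.

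Against miRNAs that are not members, miR-451a did change. Its signal was 0.201 times that of miR-23a-3p at D0, 1.80 times at D4, 13.9 times at D12 and 12.6 times at D16. miR-23a-3p is a miRNA that red blood cells hardly contain and is used in serum as the reference for their lysis. Its own signal was 46.7, 246, 172 and 124 on the 4 days. Against miR-16-5p, which is abundant in red blood cells and in most other cells, the ratio was 1.43, 6.45, 34.5 and 34.4. Against miR-92a-3p, of the miR-17-92 cluster, it was 1.23, 11.4, 58.1 and 65.2. Relative to its D0 value, the ratio at D12 was 69.2 with miR-23a-3p, 24.2 with miR-16-5p and 47.3 with miR-92a-3p as the reference, and D12 and D16 differed by less than their errors.

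**Figure D4:**
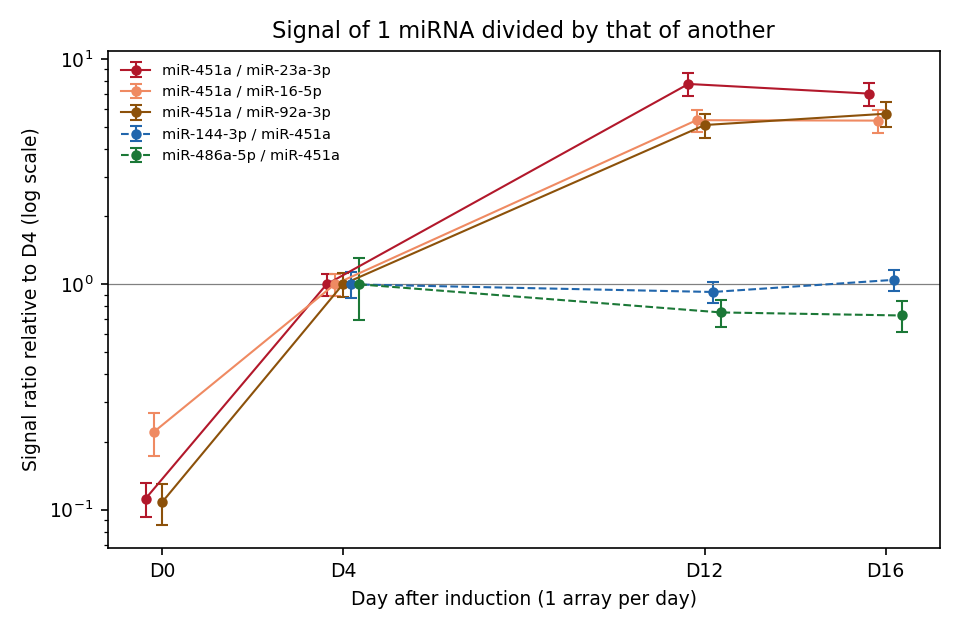
Signal of 1 miRNA divided by that of another on the same array, relative to D4 (log axis), by day; bars are within-array errors. The ratios of miR-451a to miR-23a-3p, miR-16-5p and miR-92a-3p lie at 5.09 to 7.75 at D12, and the dashed ratios of miR-144-3p and miR-486a-5p to miR-451a lie at 0.925 and 0.750, the latter with 1 probe of miR-486a-5p counted at D4 and 2 at D12.

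Other miRNAs of red blood cells were read from a list of 15 that does not hold the members. Of these, 10 were detected at D0 and 14 on each later day, and miR-363-3p on none. Their summed detected signals by day were 54.1, 496, 579 and 404. All 10 that were detected at D0 had a D12/D0 ratio above 2, from 3.72 for miR-182-5p to 18.2 for miR-106b-5p, with a median of 9.12 unscaled and 2.77 scaled. Scaled, 8 of the 10 were above 2. Over all miRNAs the shares above 2 were 47.8% and 10.1%, and the medians 1.91 and 0.581. From D4 to D12 the list moved less than the members: the median ratio over 14 miRNAs was 1.26, beside 0.865 over all miRNAs, and 11 of the 14 were above 1, where 70.6% of all miRNAs were below 1. A single listed miRNA, miR-183-5p with 2.15, was above 2, beside 4.81% of all miRNAs. Scaled, the list median was 1.63, beside 1.12, with 13 of 14 above 1 and 3 above 2. Over all miRNAs, 31.8% were then below 1 and 9.09% above 2. miR-15a-5p had 1.91, miR-16-5p 1.01 and miR-25-3p 1.36. miR-210-3p, a miRNA induced by low oxygen that is also found in red blood cells, was lower at D12 than at D4, with signals of 21.9 and 5.76.

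miRNAs of other blood and vessel cells differed among themselves, and of the 6 listed, miR-223-3p and miR-126a-3p were detected at both D4 and D12. miR-223-3p, which marks myeloid cells and platelets, was not detected at D0 and had signals of 16.9, 69.6 and 47.6 on the later days. miR-142a-3p and miR-142a-5p, of blood cells in general, were detected at D12 and D16 only, with 7.36 and 5.30 for the 3p arm and 8.63 and 6.36 for the 5p arm. The lymphocyte miRNA miR-150-5p was not detected on any day. The endothelial miRNA miR-126a-3p was undetected at D0 and had signals of 13.4, 54.0 and 59.9 on the later days, while its 5p arm was undetected throughout. Of 3 liver and serum miRNAs, miR-122-5p was detected at D12 with 6.26 and at D16 with 4.13, miR-192-5p had 4.23, 4.41 and 3.48 from D4 on, and miR-194-5p was not detected. None of the 7 striated muscle miRNAs, among them miR-1a-3p, miR-133a-3p and miR-206-3p, was detected on any array. The part that RNA from blood or vessel cells had in the member signals was not tested.

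Among 6 miRNAs described as higher in adipogenesis, 3 were detected at D0, 5 at D4 and all 6 at D12 and D16. Their D12/D0 ratios, for the 3 detected on both days, had a median of 16.6 unscaled and 5.04 scaled. The medians over all miRNAs were 1.91 and 0.581. Unscaled, miR-103-3p was at 17.5. From D4 to D12 the 5 detected on both days had ratios of 1.06 for miR-103-3p, 1.64 for miR-193b-3p, a miRNA of brown fat differentiation, 1.23 for miR-143-3p, 0.573 for miR-30a-5p and 0.714 for miR-30d-5p, all below those of the members. miR-155-5p, 1 of 3 miRNAs that decline in red cell maturation, was detected at D4 alone, with 33.9. miR-221-3p had signals of 4.86, 23.7, 18.6 and 11.6 over the 4 days. miR-222-3p was detected at D4 alone, with 3.96.

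By distance between log2 ratios, the miRNAs nearest to miR-451a over D4/D0, D12/D0 and D16/D0 were miR-99a-5p, miR-322-5p, miR-26b-5p, miR-26a-5p and miR-103-3p, of 282 compared. Even the nearest of them was 3.19 log2 units away, and its ratios were 25.3, 57.8 and 36.5. Over D12/D4 and D16/D12, which need no D0 signal, the members stood close together, with other miRNAs among them. The nearest of 349 miRNAs to miR-144-3p was miR-451a at 0.211 log2 units, followed by miR-223-3p at 0.300, miR-486a-5p at 0.375, miR-101a-3p at 0.497 and miR-542-3p at 0.577. In return, miR-144-3p was nearest to miR-451a and miR-486a-5p was in place 3. miR-144-3p and miR-451a were in places 4 and 5 for miR-486a-5p, to which miR-223-3p was nearest. After quantile normalization miR-486a-5p was nearest to miR-451a, with miR-542-3p in place 2 and miR-144-3p in place 3. miR-542-3p, which is not a member, was then nearest to miR-144-3p at 0.109 and to miR-486a-5p at 0.045 log2 units. For miR-144-3p, miR-101a-3p was in place 2, miR-486a-5p in place 3 and miR-451a in place 4. These distances rest on 4 arrays that all the miRNAs share, and those of miR-486a-5p on the summed signal with its changing number of probes.

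miR-101a-3p, which comes from a gene of its own, was in place 6 of the D12/D4 order with a ratio of 3.55. It was not detected at D0, with a limit of 4.91, and its later signals were 4.17, 14.8 and 11.1.

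**Figure D5:**
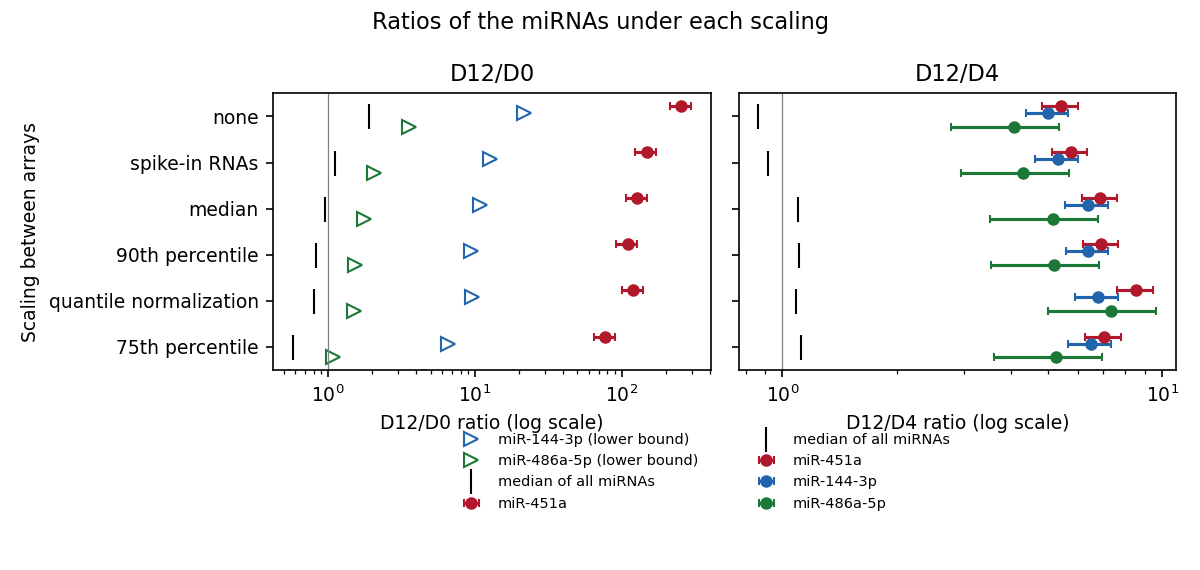
D12/D0 and D12/D4 ratios (log axes) of miR-451a, miR-144-3p and miR-486a-5p under each scaling between arrays; circles are ratios with within-array errors, open triangles lower bounds, and black bars the median of all miRNAs detected on both days. The D12/D0 ratio of miR-451a lies between 77.6 and 255, and its D12/D4 ratio between 5.42 and 8.54.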

How the data were processed

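RNA of the exosome fraction was measured on 4 arrays, 1 per day, grouped by the day in the labels. The authors deposited the intensity values of Feature Extraction 11.0.1.1, background-subtracted and not scaled between arrays. The total gene signal of a miRNA adds up its detected probes, those at more than 3 times their own error, a rule that gave the software's call in 7524 of 7524 cases. A miRNA below it is listed at 0.1. In ratios it was replaced by a limit of 3 times its summed probe errors, whereas quantile normalization kept the 0.1. Signals beyond place 329, the number detected at D0, were thus averaged there with undetected ones. miR-486a-5p at D4, in place 387, was among them. Each member has 30 spots on 2 probes. Ratios, places and distances were computed with Python 3.11.15, numpy 2.4.6 and pandas 2.3.3, and normexp with an offset of 50 in limma 3.58.1. The functions were tested on simulated data. The number of arrays limits the precision, and no test between days was possible. The members and the lists were chosen with earlier results of these data known. Named miRNAs are the members, the listed miRNAs, those sharing a seed or a gene with a member, and the 5 nearest in profile to miR-451a and to miR-144-3p. The alternatives were 5 scalings, the spot size, the probes, the spot summary, the background, the left or right spots (columns up to 82 of 164, or beyond), 3 rules of detection and a fold of 4. The array header names mm9, and coordinates were read from the RefSeq table of GRCm38.p6.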

Additional observations from a re-analysis of the deposited data

How the results depend on the processing

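No ratio of miR-451a, and no ratio of miR-144-3p or miR-486a-5p from D4 to D12, crossed 1 under any of the alternatives run, but the sizes moved. The D16/D12 ratio of miR-451a came within its error of 1, at 0.944 ± 0.101 after scaling by either percentile. The D12/D0 ratio of miR-451a was 77.6, 110, 127, 120 and 148 after scaling by the 75th percentile, the 90th percentile, the median, quantile normalization and the spike-in RNAs. It was 202 without the effective spot size, 201 from mean spot signals, 53.7 after normexp, 335 from the left spots and 211 from the right. The D12/D0 bound of miR-144-3p was 6.60, 9.36, 10.8, 9.55 and 12.6 under the same 5 scalings and 17.1 both without the spot size and from mean spot signals; normexp gives no bound. From D4 to D12, the percentiles, the median and quantile normalization gave 7.02, 6.91, 6.88 and 8.54 for miR-451a. For miR-144-3p they gave 6.49, 6.39, 6.36 and 6.78, and normexp gave 2.57. The normexp offset, a constant added to every signal, was left in all normexp ratios. It draws them towards 1, most of all where signals are dim. For miR-486a-5p, whose alternatives were added after its values were seen, quantile normalization gave 7.33, the probe detected on both days 2.72 and normexp 1.30.

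The D16/D12 ratio of miR-144-3p passed from 0.735 to 1.07 with either percentile and to 1.01 with the median. The number of members detected was 1, 3, 4 and 3 from D0 to D16. A rule of 3 standard errors over spots gave 2 at D0, adding miR-486a-5p, and 4 at D16, adding miR-144-5p. The mean spot signals behind these added calls, 3.49 and 6.51, lay below the highest negative control means of those days, 6.39 and 7.61. Under the rule of 50% of spots miR-486a-5p was lost at D4 and miR-144-5p at D12. The number of miRNAs with a D12/D0 ratio above 2, 142, was 30 to 72 under the 5 scalings. Unscaled, 58 had a ratio above 4. No paired analysis was possible because each day has 1 array. The D0 array limits every ratio to D0, since miR-451a was the only member above its detection limit there.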
